A study of Mus musculus with 69 samples.

Results

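The Id and Smad genes of bone morphogenetic protein (BMP) and transforming growth factor beta (TGF-beta) signalling were followed in dissected kidney tubules after removal of the other kidney. The 10 genes are Id1, Id2, Id3, Id4, Smad6, Smad7, Smad3, Smad4, Tgfbr1 and Bmpr2, out of 55487 genes listed at 24 h and 53700 listed at 72 h. They were selected on their changes in PT-S1, the initial part of the proximal tubule, with lower Smad7 at 24 h and lower Id4 at 72 h as the leading values. PT-S1 values are therefore given as a description with no test. The cortical collecting duct (CCD) was not used for the choice, and the tests below are confined to it. Whether both segments came from the same mice is not known. If they did, the CCD tests would not be fully independent of the choice. In CCD, mean Id1, Id2, Id3 and Id4 levels were lower after nephrectomy at both times, but none of the 10 genes passed the adjusted threshold of limma. Of the Id genes, only Id3 had groups without overlap at both times.

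BMP and TGF-beta ligands bind pairs of type I and type II receptor kinases. The receptors phosphorylate receptor-activated Smads, which enter the nucleus with Smad4 and change transcription, and Smad6 and Smad7 are inhibitory Smads that dampen the signal and are induced by it. The Id genes are classic BMP targets: their proteins pair with basic helix-loop-helix (bHLH) transcription factors and keep them off DNA. In the kidney, TGF-beta is best known for its part in fibrosis and BMP signals for nephron development and for opposing that fibrosis.

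All animals were wild-type male C57BL/6 mice, 7 weeks old at surgery. The sham group was operated on without losing a kidney, the UNx group lost 1 kidney by surgical excision (unilateral nephrectomy), and tubules were dissected 24 h or 72 h later. PT-S1 at 24 h was measured in 3 sham animals (8 libraries) and 4 UNx animals (9 libraries), and PT-S1 at 72 h in 5 animals and 12 libraries of each group. CCD at 24 h was measured in 4 sham animals (8 libraries) and 3 UNx animals (7 libraries), and CCD at 72 h in 4 sham animals (7 libraries) and 4 UNx animals (6 libraries). The number after the group name in the labels was read as the animal, and the animal is the replicate (n) throughout. Nothing else in the labels says how the samples of a group were kept apart, so p-values measure the spread between these animals only. The same numbers recur in PT-S1 and CCD, and the labels do not say whether these are the same mice.

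Levels are in TPM (a relative transcript abundance), which are scaled for transcript length and library total, so the sequencing depth is unknown and the number of animals limits the precision. Changes are UNx minus sham as log2(TPM + 1), where changes of low genes come out too small. The dissection labels fit the markers: 7 proximal tubule S1/S2 genes summed to 6712 to 15846 TPM in PT-S1 animals and to 11.9 to 80.7 TPM in CCD animals, and 6 principal cell genes to 69.7 to 135 TPM and 18609.5 to 63809 TPM. Apart from the rest stood 5 libraries, whose correlation with the others of their table had a median under 0.92. They belong to PT-S1 24 h sham animals 1 and 3, PT-S1 72 h UNx animals 1 and 2, and CCD 72 h sham animal 1, each of which has at least 1 other library, and values without these libraries are given where they differ. Because these are bulk samples, fewer cells of a type and less RNA per cell cannot be told apart.

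The members' levels in sham animals ran from a group mean of 0.997 TPM for Smad6 to one of 912 TPM for Id2, as the plots of levels by animal show. Id2 was the highest member in both segments, at 643 ± 142 TPM (SD, n = 3) in PT-S1 at 24 h and 809 ± 174 TPM (n = 4) in CCD. Id3 came next, at 103 ± 66.1 TPM in PT-S1 and 325 ± 48.6 TPM in CCD, and its animals lay below all Id2 animals of the same group. At 72 h Id2 and Id3 kept the first and second place, but in CCD their ranges overlapped, with Id2 at 912 ± 198 TPM and Id3 at 477 ± 186 TPM (n = 4). In PT-S1 the order went on with Smad4, Id1, Tgfbr1, Smad3, Id4, Smad7, Bmpr2 and Smad6 at 24 h. The neighbours in that order overlapped except at 4 steps, Id2 to Id3, Id3 to Smad4, Tgfbr1 to Smad3 and Smad7 to Bmpr2. In CCD at 24 h the order went on with Tgfbr1, Id1, Smad4, Id4, Smad6, Smad7, Smad3 and Bmpr2, and every neighbouring pair from Tgfbr1 to Smad3 overlapped.

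The largest ratio between the segments was that of Smad6, the inhibitory Smad that acts mainly on BMP signals. Its sham level was 1.23 ± 0.309 TPM in PT-S1 and 20.3 ± 4.85 TPM in CCD at 24 h, a ratio of 16.5, and the ratio at 72 h was 22.3. Smad7, which inhibits both TGF-beta and BMP receptors, had ratios of 5.12 and 7.57, and Id4 had 5.21 and 4.52. The type I receptor Tgfbr1 was 4.10 and 6.41 times as high in CCD, Id3 3.17 and 3.21 times, and the type II BMP receptor Bmpr2 3.12 and 2.91 times. For these 6 genes and for Smad3 the sham animals of the segments did not overlap at either time, whereas Id1 and Id2 overlapped at both times and Smad4 at 24 h. The segments come from tables normalized separately, so these ratios have no test.

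**Figure D1:**
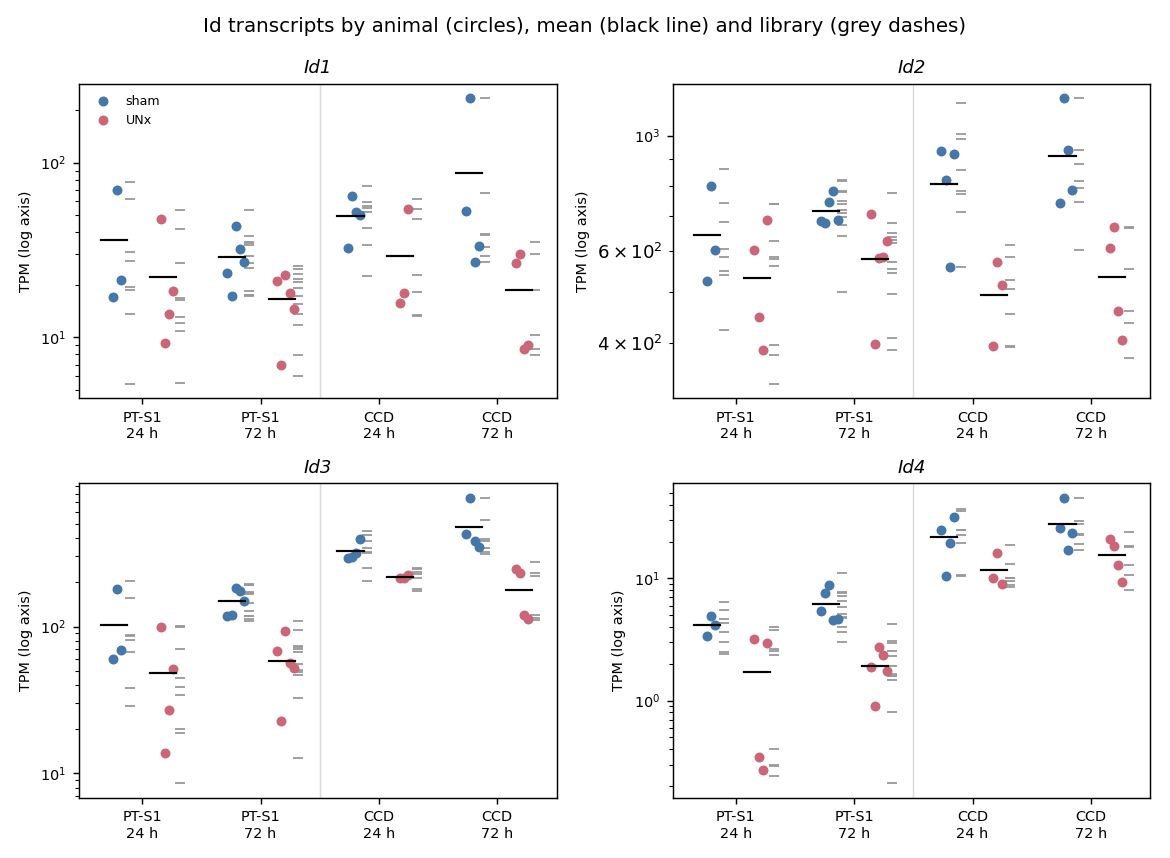
TPM of Id1, Id2, Id3 and Id4 (log axis) in sham (blue) and UNx (red) animals for each segment and time, with the mean of the animals as a black line and single libraries as grey dashes. In CCD at 72 h the Id3 circles of UNx animals (112 to 247 TPM) all lie below those of sham animals (349.7 to 753 TPM), and 1 sham animal stands apart for Id1 at 234 TPM.

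Id3 was the only Id gene whose groups did not overlap at either time in CCD. At 24 h the sham animals had 292, 297, 315 and 397 TPM of Id3 and the UNx animals 213, 213 and 225 TPM. All UNx animals lay below all sham animals, with a change of -0.56 (SE 0.114, 95% interval -0.82 to -0.30), which missed the threshold of limma at an adjusted p of 0.0638 over the 13775 genes tested. At 72 h the sham animals had 426, 753, 382 and 349.7 TPM and the UNx animals 247, 231, 121 and 112 TPM. Again the groups did not overlap, and neither did the single libraries, which ranged from 309 to 753 TPM in sham and from 111 to 274 TPM in UNx. The change at 72 h was -1.43 (SE 0.313, interval -2.13 to -0.73), with an adjusted p of 0.107 by limma.

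Id2, the most abundant Id transcript, stood at 934, 821, 559 and 920.3 TPM in the CCD sham animals at 24 h and at 394, 572 and 516 TPM in the UNx animals. Sham animal 3, known from a single library, was the one that lay inside the UNx range. The change was -0.69 (SE 0.187, adjusted p = 0.125 by limma). With 1 animal left out it ranged from -0.85 to -0.54, with an adjusted p from 0.0443 to 0.392 by limma. The lowest adjusted p was that of the fit without sham animal 3. At 72 h the sham animals had 743, 1181, 938 and 785 TPM and the UNx animals 609, 668, 460.3 and 405 TPM, with no overlap. The change was -0.77 (SE 0.193, adjusted p = 0.187 by limma), and without the library of low correlation the groups overlapped and the change was -0.70.

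Id1 had the largest spread of the Id genes in CCD, with the largest SE of the 4 at both times. In CCD at 24 h it was at 32.4, 64.1, 52.0 and 49.9 TPM in sham and at 15.8, 18.0 and 54.4 TPM in UNx mice, so that 2 UNx animals lay below all sham animals and 1 lay among them. The change of -0.91 had an SE of 0.400 and an adjusted p of 0.320 by limma, and it was -1.46 without UNx animal 3, the one at 54.4 TPM, and -0.60 without UNx animal 1. At 72 h the sham animals had 53.1, 234, 26.8 and 33.55 TPM and the UNx animals 26.8, 30.0, 8.62 and 9.09 TPM. The change of -1.80 (SE 0.652, interval -3.26 to -0.35, adjusted p = 0.509 by limma) was -1.13 without sham animal 2, the animal at 234 TPM. That animal also had the highest summed level of endothelial markers in its table, 369 TPM against 58.6 to 264 TPM in the other sham animals, and their part in its Id1 level was not tested.

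Id4, the least abundant Id transcript, was at 24.7, 10.6, 19.45 and 31.9 TPM in CCD sham animals at 24 h and at 10.1, 16.0 and 8.93 TPM in UNx animals. Only sham animal 2 reached down into the UNx range. That sham animal also carried the most thick ascending limb transcripts of its table, with the 4 markers summing to 3637 TPM against 84.1 to 807 TPM in the other CCD animals at 24 h, and their part in its Id4 level was not tested. The change was -0.78 (SE 0.326, adjusted p = 0.296 by limma). At 72 h Id4 was at 26.1, 45.8, 17.1 and 23.4 TPM in sham and at 21.0, 18.4, 12.9 and 9.29 TPM in UNx mice, which overlapped, with a change of -0.80 (SE 0.312, adjusted p = 0.574 by limma).

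Summed over the 4 Id genes, the transcripts came to 1205 ± 193 TPM in sham and 752 ± 104 TPM in UNx mice of CCD at 24 h, and to 1504 ± 478 and 748 ± 208 TPM at 72 h. Id2 made up 66.6% of this sum in sham and 65.4% in UNx animals at 24 h. At 72 h its share was 61.9% ± 6.87 in sham and 72.5% ± 4.30 in UNx animals, while that of Id3 was 31.4% ± 3.15 and 23.2% ± 3.35. In PT-S1 the sum was 786 ± 237 and 604 ± 178 TPM at 24 h and 900.0 ± 81.3 and 657 ± 138 TPM at 72 h, of which Id2 made up 79.8% to 89.0% in the group means.

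The stretches before the start sites of Id2, Id3 and Id4 are shown because their mean levels were all lower in UNx animals of CCD, though none passed the adjusted threshold. A further reason is that Smad complexes act through short motifs in such regions. Each stretch is the 250 bases before the RefSeq start in build GRCm38.p6, which is older than the build of the expression files, on the gene's own strand. As a check, bases just after the start were sought in known transcripts of the gene. They were found for Id2 and Id3 but not for Id4, so the Id4 start is less certain. The capitals mark 2 motifs, the GC-rich Smad element GGCGCC and the Smad-binding element CAGAC, searched on both strands (GTCTG is the second motif on the other strand). Id2 lies at chr12:25096093-25096342 (minus strand), Id3 at chr4:136143572-136143821 (plus) and Id4 at chr13:48260866-48261115 (plus).
Id2: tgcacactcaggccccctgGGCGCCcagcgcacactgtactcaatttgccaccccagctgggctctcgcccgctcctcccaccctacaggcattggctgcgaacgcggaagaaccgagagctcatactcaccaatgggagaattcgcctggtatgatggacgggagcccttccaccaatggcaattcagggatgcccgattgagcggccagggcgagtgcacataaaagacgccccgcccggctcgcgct
Id3: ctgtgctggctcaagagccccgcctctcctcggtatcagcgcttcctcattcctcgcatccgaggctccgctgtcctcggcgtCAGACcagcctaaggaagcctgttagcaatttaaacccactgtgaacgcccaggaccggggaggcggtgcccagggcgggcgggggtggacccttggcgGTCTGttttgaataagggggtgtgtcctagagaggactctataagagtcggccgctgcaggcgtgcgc
Id4: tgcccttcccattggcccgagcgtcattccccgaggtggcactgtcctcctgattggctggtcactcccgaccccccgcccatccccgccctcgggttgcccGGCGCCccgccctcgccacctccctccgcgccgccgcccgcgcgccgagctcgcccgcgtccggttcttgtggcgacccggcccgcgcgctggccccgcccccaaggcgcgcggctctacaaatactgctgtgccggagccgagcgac

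GGCGCC occurred once in the Id2 stretch and once in that of Id4, and in 9.59% of 32851 RefSeq promoter windows of the same length. It also occurred once in a Tgfbr1 stretch and once in that of Bmpr2, but not in those of Id3, Smad6 and Smad3. CAGAC occurred at 2 places in the Id3 stretch, once in another Tgfbr1 stretch, and in 42.2% of all windows. The motifs did not overlap each other. The Id2 and Id3 stretches were 62.8% G and C and that of Id4 75.6%, against a median of 52.4% over all windows. These matches describe the letters only. Stretches were taken for 7 of the 10 members: no RefSeq entry was found for Id1, and those of Smad4 and Smad7 are not reported here.

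**Figure D2:**
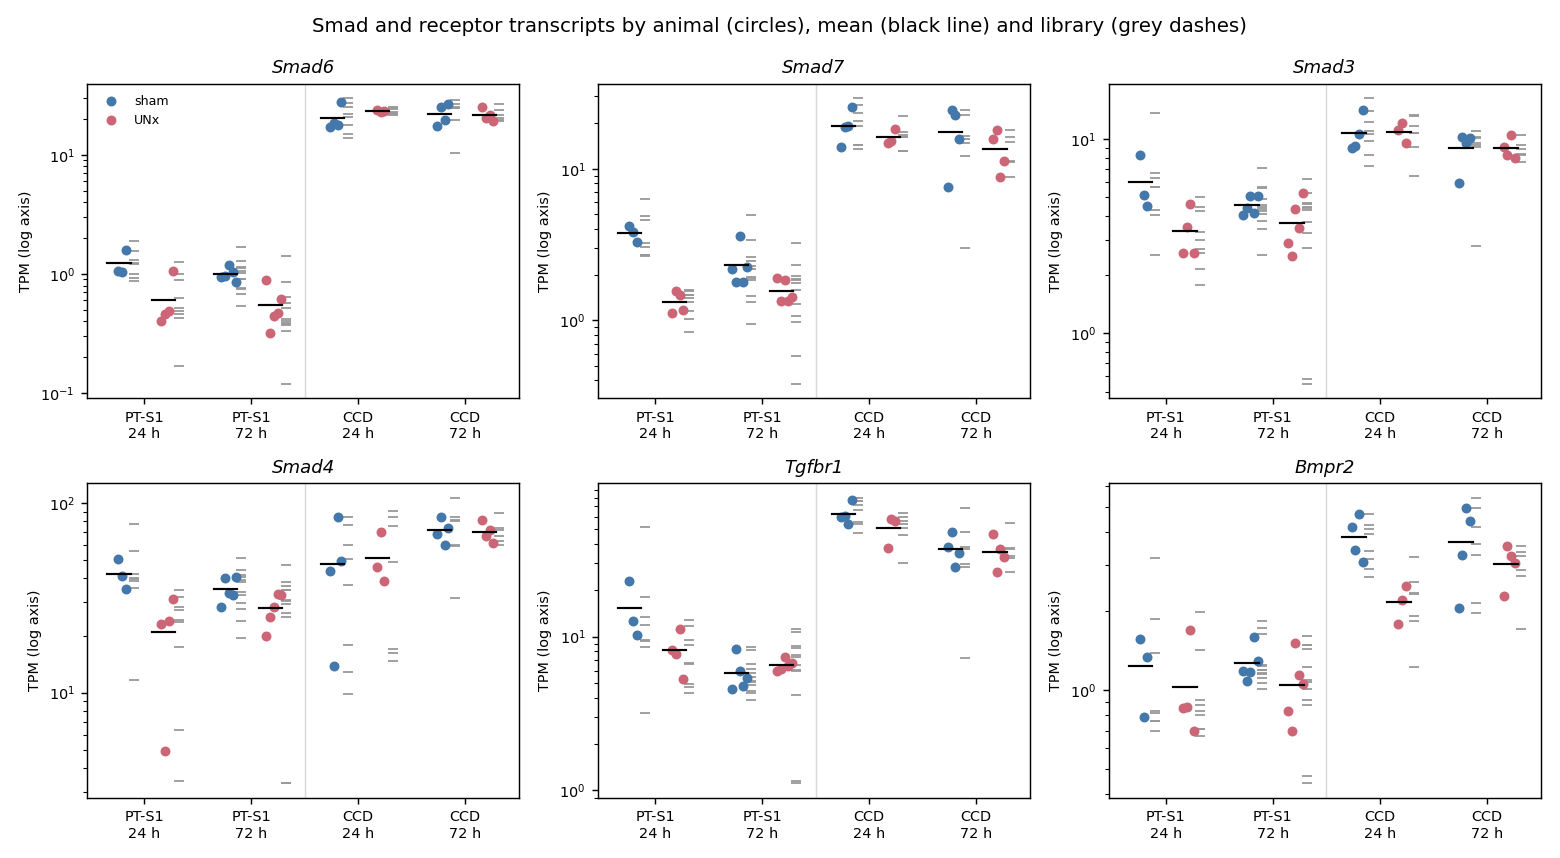
TPM of Smad6, Smad7, Smad3, Smad4, Tgfbr1 and Bmpr2 (log axis) in sham (blue) and UNx (red) animals for each segment and time, with means as black lines and libraries as grey dashes. In PT-S1 at 24 h the Smad7 circles of UNx animals (1.12 to 1.56 TPM) lie below those of sham animals (3.30 to 4.21 TPM), whereas in CCD the groups overlap.

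Neither inhibitory Smad was separated between the groups in CCD. Smad7 was at 14.0, 18.8, 19.0 and 25.4 TPM in sham animals at 24 h and at 14.7, 15.3 and 18.3 TPM in UNx animals. The UNx animals fell inside the sham range, and the change of -0.22 had an interval from -0.62 to 0.18 (adjusted p = 0.598 by limma). At 72 h Smad7 was at 7.52, 24.4, 22.7 and 15.6 TPM in sham and at 15.7, 17.9, 8.86 and 11.2 TPM in UNx mice. Its change of -0.23 had the wide interval of -1.08 to 0.62, and without the low-correlation library, in which Smad7 was at 2.99 TPM, it was -0.44. Smad6 had a change of 0.23 (interval -0.12 to 0.59) at 24 h and of 0.0077 (interval -0.37 to 0.39) at 72 h, with adjusted p of 0.525 and 0.997 by limma. Its 3 UNx animals at 24 h lay close together, at 23.0 to 23.8 TPM, between the 3 lower sham animals at 17.2 to 18.6 TPM and sham animal 4 at 27.5 TPM.

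Smad3, the receptor-activated Smad of the TGF-beta branch, had the change nearest to 0 of the members in CCD at 24 h. It was at 10.7 ± 2.38 TPM in sham and 10.9 ± 1.25 TPM in UNx mice at 24 h, with a change of 0.024 (interval -0.35 to 0.40). At 72 h it was at 8.96 ± 2.04 and 8.97 ± 1.13 TPM, with a change of 0.062 (interval -0.41 to 0.53). Smad4, the partner of all receptor-activated Smads, was at 44.0, 13.8, 84.1 and 49.7 TPM in sham and at 45.8, 69.9 and 38.7 TPM in UNx mice at 24 h. This sham range enclosed every UNx animal, and the interval of the change, -1.08 to 1.30, left a difference of about 1 log2 unit in either direction possible. At 72 h the Smad4 interval was narrower, -0.27 to 0.36 around 0.045. Without the low-correlation library of CCD at 72 h, the changes of Smad6, Smad3 and Smad4 were -0.14, -0.11 and -0.17.

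Of the receptors, Bmpr2 was lower in every UNx animal of CCD at 24 h. It was at 4.21, 3.42, 4.68 and 3.09 TPM in sham and at 1.78, 2.22 and 2.49 TPM in UNx mice. The groups did not overlap, and the change of -0.63 (SE 0.175, interval -1.02 to -0.23) had an adjusted p of 0.134 by limma. At 72 h Bmpr2 was at 2.05, 3.28, 4.96 and 4.41 TPM in sham and at 2.29, 3.56, 3.24 and 3.05 TPM in UNx mice, which overlapped, with a change of -0.18 (interval -0.72 to 0.35). Tgfbr1, the type I receptor for TGF-beta, was at 62.9 ± 10.1 and 50.4 ± 11.1 TPM at 24 h (change -0.33, interval -0.72 to 0.063) and at 37.2 ± 8.07 and 35.6 ± 8.25 TPM at 72 h (change 0.11, interval -0.40 to 0.62). Without the low-correlation library at 72 h, where Tgfbr1 was at 7.21 TPM, its change was -0.28.

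In CCD at 24 h, 10 members were tested, and 0 passed an adjusted p of 0.05 in limma, where 0.987% of all genes did. At an unadjusted p under 0.05, 5 members were lower in UNx (Id1, Id2, Id3, Id4 and Bmpr2), against 9.97% of all genes, and 2 had groups that did not overlap with UNx lower (Id3 and Bmpr2), against 9.30%. In CCD at 72 h, 0 of 10 passed the adjusted threshold, against 0.595% of all genes. Here 4 members, the Id genes, were lower at an unadjusted p under 0.05, against 2.82% of all genes, and 2 had groups that did not overlap (Id2 and Id3), against 1.82%. The median change of the members was -0.44 at 24 h and -0.21 at 72 h, beside -0.038 and 0.010 for all genes tested. Without the low-correlation library at 72 h the median of all genes was -0.072, and 1 member, Id3, had groups that did not overlap.

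Whether the UNx effect in CCD differed between 72 h and 24 h was tested directly. No member passed the adjusted threshold of limma, and neither did any of the 13253 genes tested (0% called, with 658 genes at an unadjusted p under 0.05). Id3 had the smallest unadjusted p of the members, with a difference of -0.87 (SE 0.383, interval -1.69 to -0.054, adjusted p = 0.968). For Id2 the difference was -0.077 (interval -0.70 to 0.55) and for Id4 -0.020 (interval -1.08 to 1.03). For Bmpr2, which did not overlap at 24 h only, it was 0.45 (interval -0.19 to 1.09), so a change between the times was not shown.

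**Figure D3:**
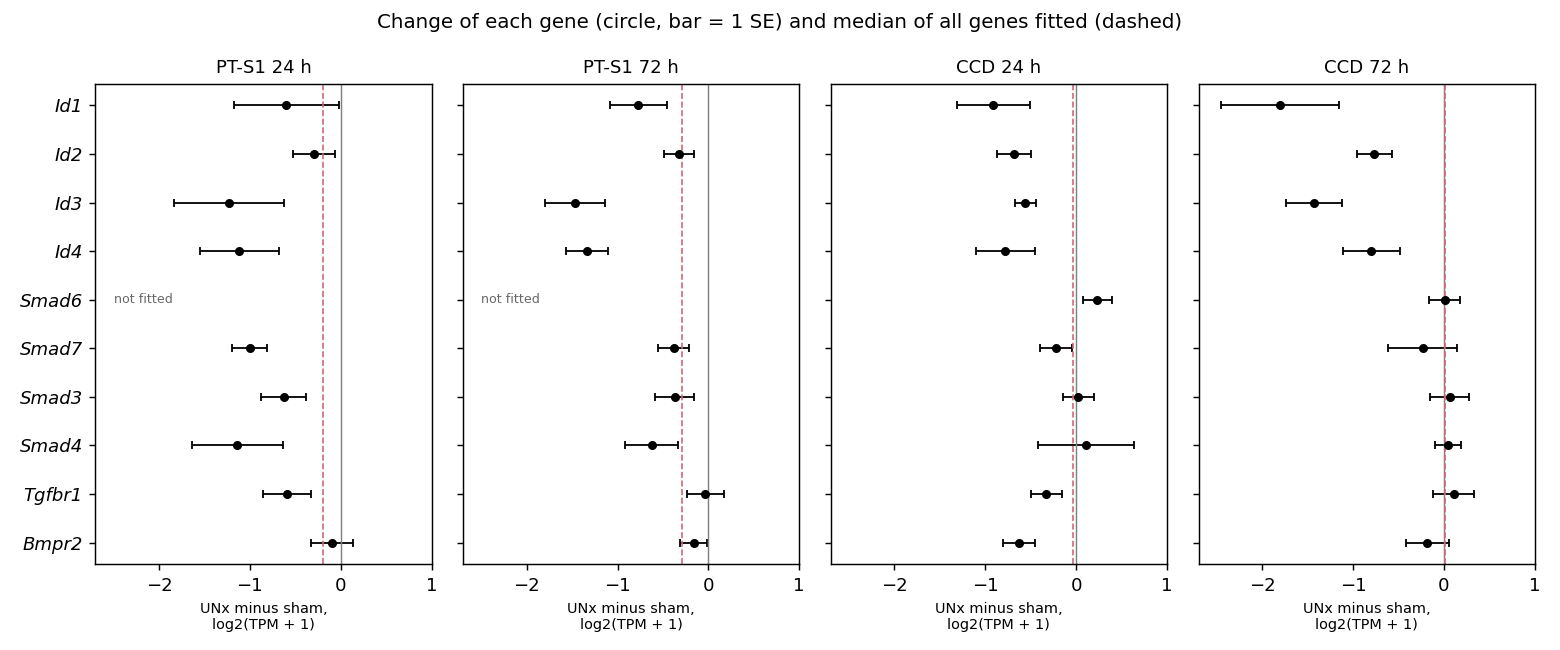
UNx minus sham on the log2(TPM + 1) scale for each member (circle, bar 1 SE) in the 4 tables, with 0 as a grey line and the median of all genes fitted as a dashed red line. The circles of Id1, Id2, Id3 and Id4 lie left of the dashed line in all 4 panels, Id2 in PT-S1 by the least, and Smad7 lies at -1.0 in PT-S1 at 24 h and between -0.38 and -0.22 in the other panels.

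In PT-S1 at 24 h the members are described, since this contrast served to choose them. Smad7 was at 4.21, 3.80 and 3.30 TPM in sham and at 1.12, 1.56, 1.46 and 1.16 TPM in UNx mice. Single libraries did not overlap either, ranging from 2.65 to 6.32 TPM in sham and from 0.83 to 1.57 TPM in UNx. Smad4 was at 50.9, 41.2 and 35.3 TPM in sham and at 22.9, 4.91, 24.0 and 31.3 TPM in UNx mice, with no overlap between the animals but overlap between libraries. Id4 was at 3.38, 4.91 and 4.17 TPM in sham and at 3.225, 0.345, 0.270 and 2.98 TPM in UNx mice, which split into 2 animals just under the sham range and 2 far below it. The 2 far below, UNx animals 2 and 3, also had the highest sums of the proximal tubule S3 markers, 315 and 232 TPM against 69.5 and 13.0 TPM in the other UNx animals and 24.7 to 124 TPM in sham, and the part of these in the Id4 values was not tested. The changes were -1.0 for Smad7, -1.14 for Smad4 and -1.12 for Id4.

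The other members in PT-S1 at 24 h overlapped between the groups. Id3 had a change of -1.23, with 60.5, 179 and 69.0 TPM in sham and 99.7, 13.7, 27.1 and 51.2 TPM in UNx animals. Id1 was at -0.60, Id2 at -0.29, Smad3 at -0.63, Tgfbr1 at -0.59 and Bmpr2 at -0.097. The Id1 value turned to 0.058 without sham animal 2, which was at 69.7 TPM beside 17.1 and 21.3 TPM in the other sham animals, and was -1.05 without UNx animal 1 and -1.85 with arrayWeights, which weights animals by their fit. Smad6 was not fitted because its mean was under 1 TPM, and its levels were 1.23 ± 0.309 TPM in sham and 0.601 ± 0.304 TPM in UNx mice. All 9 members fitted had a lower UNx mean, in a table where the median change of all genes was -0.19, and 3 of them had groups that did not overlap, against 19.0% of all 11874 genes with UNx lower. Without the libraries of low correlation there were also 3, Smad7, Smad3 and Smad4, and the Id4 groups overlapped. With libraries rescaled by median ratios the median of all genes was -0.0033, Smad7 was the 1 member without overlap, Bmpr2 was at 0.0071, and the other 8 remained lower. The summed S1/S2 markers were also lower in UNx animals, at 8256 to 11991 TPM against 12107 to 15459 TPM in sham. Most of that sum was Slc34a1 (mean 9082 TPM in sham and 6992 TPM in UNx) and Slc5a2 (2915 and 1989 TPM). Of the 7 markers 6 were lower, and Slc22a6 went the other way (356 and 791 TPM). Distal convoluted tubule markers, none of which reached a mean of 1 TPM, summed to 0.295 to 0.930 TPM in UNx against 1.085 to 1.29 TPM in sham. The part of both lists in the members' values was not tested.

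In PT-S1 at 72 h Id4 was at 5.405, 7.66, 8.83, 4.55 and 4.66 TPM in sham and at 1.87, 0.905, 2.76, 2.34 and 1.76 TPM in UNx mice. Id3 was at 118, 119.9, 183, 175 and 149 TPM in sham and at 68.4, 22.8, 92.6, 56.4 and 52.2 TPM in UNx mice. Both genes were without overlap, with changes of -1.33 for Id4 and -1.47 for Id3, and of -1.11 and -1.33 without the libraries of low correlation. Smad7, with 2.17, 1.78, 3.62, 1.78 and 2.25 TPM in sham and 1.90, 1.35, 1.83, 1.33 and 1.42 TPM in UNx animals, overlapped, with a change of -0.38.

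Id1 was at -0.77 and Id2 at -0.32 in PT-S1 at 72 h, and Smad6 was again not fitted, at 0.997 ± 0.119 TPM in sham and 0.549 ± 0.221 TPM in UNx mice. Smad3 was at -0.37, Smad4 at -0.62, Tgfbr1 at -0.033 and Bmpr2 at -0.16. The Tgfbr1 mean was the higher in UNx on the TPM scale, 6.51 ± 0.545 against 5.81 ± 1.505 TPM. These 4 changes moved with the libraries of low correlation from UNx animals 1 and 2: without them Smad3 was at 0.0089, Smad4 at 0.035, Tgfbr1 at 0.46, Bmpr2 at -0.063 and Smad7 at -0.11. Of the 9 members fitted, 2 had groups that did not overlap, against 5.34% of all genes with UNx lower, and the median of all genes, -0.29 with all libraries, was -0.021 without those of low correlation. With median-ratio scaling, which moved the median of all genes to 0.019, Id2 was at 0.064, Tgfbr1 at 0.23 and Bmpr2 at 0.016, and Id4 was the 1 member without overlap. Principal cell markers summed to 96.3 to 135 TPM in UNx and to 69.7 to 79.8 TPM in sham animals. That sum was mostly Aqp3 (mean 34.6 TPM in sham and 52.3 TPM in UNx) and Fxyd4 (39.3 and 58.3 TPM). The rest of the list was low and lower in UNx: Aqp2 (0.307 and 0.022 TPM), Avpr2 (0.062 and 0.022), Scnn1b (0.301 and 0.002) and Scnn1g (0.234 and 0.002). Intercalated cell markers summed to 1.86 to 2.78 TPM in UNx and 3.49 to 20.8 TPM in sham animals. The part of these markers in the members' values was not tested.

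Smad6, Smad7 and the Id genes are also expressed by endothelial cells, so the 10 endothelial markers were summed in each animal. The sums overlapped between sham and UNx animals in all 4 tables. In CCD at 24 h they were 117 to 265 TPM for sham and 152 to 402 TPM for UNx animals, and 58.6 to 369 and 79.6 to 223 TPM at 72 h. In PT-S1 they were 85.4 to 199.8 and 94.2 to 246 TPM at 24 h and 131 to 332 and 66.0 to 280.0 TPM at 72 h. The median sums were nevertheless lower in UNx: 243 and 194 TPM in CCD at 24 h and 215 and 174 TPM at 72 h. For PT-S1 the medians were 164 and 118 TPM at 24 h and 169 and 95.5 TPM at 72 h. Of 9 markers tested, 7 were lower in UNx at either time in CCD, 5 in PT-S1 at 24 h and 9 at 72 h. The part of the endothelial markers in the members' values was not tested. In CCD at 24 h the S3 markers of the proximal tubule were the 1 list of 11 without overlap, at 73.2 to 99.0 TPM in UNx against 109 to 127 TPM in sham, and at 72 h there was none. Most of that sum was Cyp7b1 (mean 68.6 TPM in sham and 60.8 TPM in UNx) and Atp11a (29.9 and 22.9 TPM). Slc7a13 (7.13 and 2.37 TPM), Slc22a7 (4.70 and 1.68 TPM) and Slc5a1 (5.97 and 0.302 TPM) made up the rest.

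The other genes of the pathway were followed in 7 lists by role, 82 genes in all, chosen from general knowledge with earlier results on some of them known. In CCD at 24 h, 56 of the 82 were tested, of which 1 passed the adjusted threshold of limma, with UNx lower, where 0.987% of all genes passed in either direction. Of these 56, 6 were lower at an unadjusted p under 0.05, against 9.97% of all genes. By overlap, 5 of the 56 had groups without overlap with UNx lower, against the 9.30% of all genes, and 4 with UNx higher, against 5.71%. The median change of the 56 was -0.066 beside -0.038 for all genes. In CCD at 72 h, 0 of 54 passed (0.595% of all genes), 8 were lower at an unadjusted p under 0.05 (2.82% of all genes), and 3 were lower without overlap (1.82% of all genes), with a median of -0.065 beside 0.010.

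The gene that passed was Mitf, a bHLH leucine zipper factor, listed with the partners of Id proteins. It fell from 16.8 ± 2.65 TPM (n = 4) to 7.05 ± 1.88 TPM (n = 3) in CCD at 24 h, a change of -1.15 (SE 0.183, adjusted p = 0.0311 by limma). The call was lost when any of 5 animals was left out (sham animals 1, 2 and 3, UNx animals 1 and 2; adjusted p from 0.0607 to 0.120), while the change stayed between -1.33 and -1.01. Tcf3, which encodes the E proteins E12 and E47 that Id proteins bind, was at 22.7 ± 1.59 and 29.2 ± 4.07 TPM without overlap, with a change of 0.35 (adjusted p = 0.190). Across the 7 partners tested the median change was -0.074 at 24 h and -0.19 at 72 h. The partner with the highest level was Hes6 in PT-S1, at 195 ± 11.5 TPM in sham at 24 h, and Hes1, also a BMP target, in CCD at 306 ± 73.0 TPM.

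Among the receptors and co-receptors, 0 of 12 tested in CCD passed at either time. Tgfbr3, the co-receptor betaglycan, was at 24.6 ± 3.75 TPM in sham and 17.5 ± 4.36 TPM in UNx mice at 24 h without overlap, with a change of -0.53 (adjusted p = 0.249 by limma). It was 1 of 4 receptors of the 12 lower without overlap at 24 h, against 9.30% of all genes, and 0 of 12 were so at 72 h, against 1.82%. The most abundant receptors on the lists were Bmpr1b, a type I BMP receptor, in CCD at 90.3 ± 10.5 TPM and Tgfbr2, the type II TGF-beta receptor, in PT-S1 at 22.2 ± 11.2 TPM in sham at 24 h. Of the ligands, 0 of 9 and 0 of 8 tested passed in CCD at 24 h and 72 h, and the highest were Gdf15, a stress-responsive cytokine, in CCD at 564 ± 102 TPM and Bmp6 in PT-S1 at 41.7 ± 15.7 TPM.

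Among the antagonists and inhibitors, 0 of 14 passed in CCD at either time. Ski, a nuclear co-repressor of Smads, was at 9.32 ± 1.56 TPM in sham and 15.2 ± 3.00 TPM in UNx mice of CCD at 24 h without overlap, a change of 0.50 (adjusted p = 0.189 by limma). In PT-S1 at 24 h Ski was at 6.64 ± 1.38 and 2.95 ± 0.769 TPM, and Pmepa1, a TGF-beta-induced inhibitor of Smad signalling, at 16.0 ± 3.16 and 6.83 ± 5.64 TPM, both without overlap and with changes of -0.88 and -1.40. There 10 of the 41 genes tested from the 7 lists were lower without overlap, against 19.0% of all genes, and the median change of all genes was -0.19. Skil, the Ski-related co-repressor that TGF-beta induces, was at 16.1 ± 4.40 and 9.96 ± 0.717 TPM in CCD at 72 h, a change of -0.52 (adjusted p = 0.685) that was -0.78 with an adjusted p of 0.0299 without the low-correlation library. Twsg1, an extracellular BMP modulator, was the most abundant of this list in CCD at 227 ± 21.7 TPM, and Ppm1a, a phosphatase, in PT-S1 at 32.0 ± 1.38 TPM.

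Of the TGF-beta targets, 0 of 10 and 0 of 9 tested passed in CCD at 24 h and 72 h. Cdkn2b, a cell cycle inhibitor, was at 23.7 ± 4.40 TPM in sham and 11.2 ± 3.40 TPM in UNx mice at 72 h without overlap, with a change of -1.04 (SE 0.220, adjusted p = 0.0933 by limma). Of the BMP targets other than the Id genes, 0 of 4 tested passed at either time, with medians of -0.089 and -0.40. The highest targets in sham at 24 h were Ccn1 in CCD at 207 ± 83.1 TPM, and in PT-S1 Col4a1, a basement membrane collagen, at 31.9 ± 9.09 TPM and Klf10 at 16.8 ± 7.51 TPM. Of the receptor-activated Smads other than Smad3, 0 of 3 passed in CCD, and Smad2 was the highest in both segments, at 51.3 ± 3.73 TPM in CCD and 22.4 ± 6.68 TPM in PT-S1. In PT-S1 at 72 h Smad5, a BMP-branch Smad, was at 7.99 ± 1.30 TPM in sham and 5.76 ± 0.404 TPM in UNx mice without overlap, with a change of -0.52 that was -0.10 without the low-correlation libraries. It was the 1 gene of the 42 tested there from the 7 lists that was lower without overlap, against 5.34% of all genes.

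**Figure D4:**
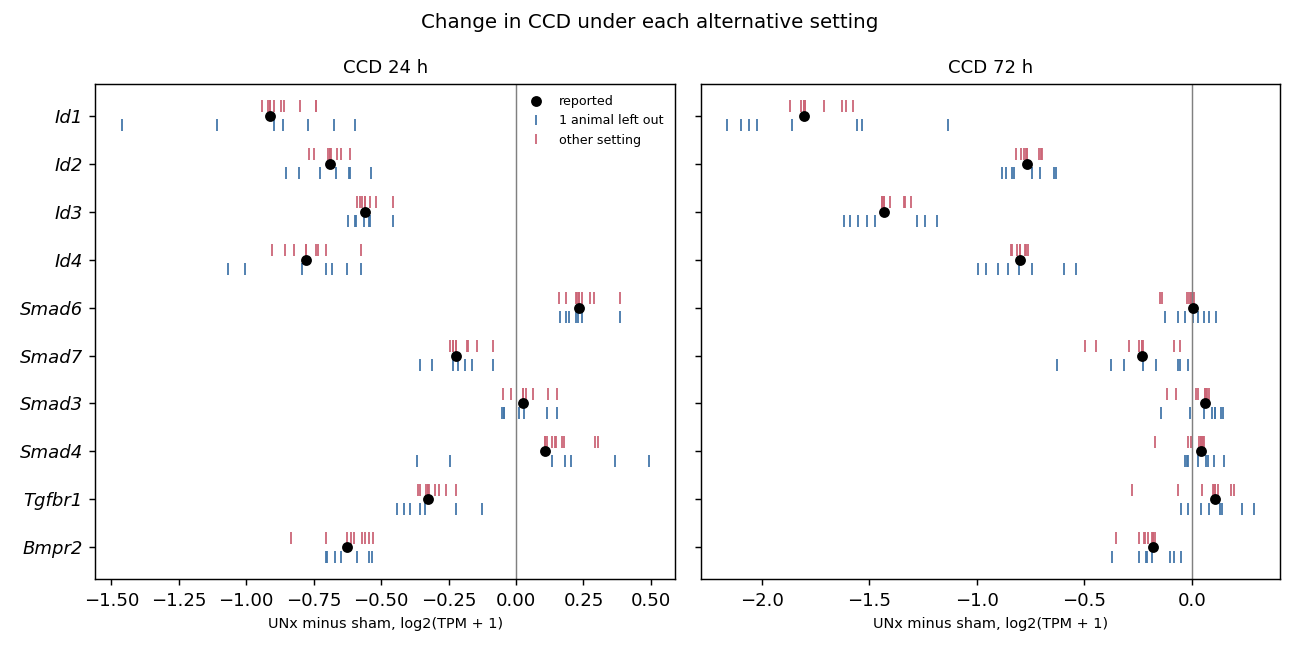
Change in CCD at 24 h and 72 h (UNx minus sham, log2(TPM + 1)) of each member as reported (black circle), with 1 animal left out (blue ticks) and under the other settings (red ticks). The ticks of Id1, Id2, Id3 and Id4 stay left of 0 in both panels, whereas those of Smad3 and Smad4 fall on both sides of it.

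The members were also compared with each other over the 32 animals, counted separately in each segment, which share tables and, within a table, normalization. Same-numbered animals of PT-S1 and CCD may be the same mice, so the 32 may not be independent. After the mean of each group was taken away, the highest Pearson correlations of log2(TPM + 1) were those of Id1 with Id3 (0.83), Id3 with Id4 (0.73), Id2 with Id3 (0.72) and Smad3 with Tgfbr1 (0.72). With the mean of each table taken away instead, which keeps the difference between sham and UNx, the genes most like Id4 among 10689 were Id3 (r = 0.86), Mfap1b (0.81) and Gpank1 (0.81). Mfap1b has a near-identical copy, Mfap1a, so its reads may be split between both and its value is uncertain. The genes most like Smad7 were Rara (0.86), Kif3c (0.84) and Tob2 (0.84). These correlations are given as a description.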

How the data were processed

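The authors deposited 4 tables of TPM per gene and library, 1 per segment and time. RNA was made into cDNA with the SMART-Seq V4 kit, per the labels' protocols, and reads were processed with STAR and RSEM 1.3.3 on GRCm39, per the submitters' processing notes. TPM keeps no depth. All 69 columns were used: 47 matched 1 sample by name, and 22 matched the group and animal but not the library number. No columns were identical.

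Libraries of an animal were averaged as log2(TPM + 1). Levels and overlap of groups use each animal's mean TPM. Within each table, genes whose mean reached 1 TPM were tested by limma 3.58.1 in R 4.3.3 (moderated with a mean-variance trend, two-sided, Benjamini-Hochberg over all genes tested, threshold 0.05), after the fits were tested on simulated data. The difference between times in CCD was a contrast in 1 model of the CCD groups.

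The members and lists were chosen with earlier results of these data known. Named were all members, each list's highest gene per segment in sham, up to 2 rises and 2 falls per table among list genes without overlap and with at least 5 TPM in a group, and the 3 genes most correlated with Id4 and with Smad7. Alternatives covered the pseudocount, the filter, scaling, libraries, weights, left-out animals and a block. Smad4 and Smad7 promoters are not reported here.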

Additional observations from a re-analysis of the deposited data

Results flagged for a closer look

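In 60 groups of 4 or 5 animals (10 members in 6 groups), the gap of the highest or lowest animal to its neighbour was set against the range of its group with Dixon's 95% critical value. Chance flags about 1 in 20 such groups, and 5 were flagged here. Id1 in CCD 72 h sham animal 2 was at 234 TPM, with the other animals at 26.8 to 53.1 TPM. Smad6 in CCD 24 h sham animal 4 was at 27.5 TPM, with the others at 17.2 to 18.6 TPM, and in PT-S1 24 h UNx animal 4 it was at 1.05 TPM, with the others at 0.400 to 0.490 TPM. Smad7 in PT-S1 72 h sham animal 3 was at 3.62 TPM, with the others at 1.78 to 2.25 TPM. Bmpr2 in PT-S1 24 h UNx animal 3 was at 1.70 TPM, with the others at 0.697 to 0.860 TPM.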

How the results depend on the processing

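The changes of Id1, Id2, Id3 and Id4 in CCD kept their direction under every alternative run, at both times, as did those of Smad7 and Bmpr2. Past the adjusted threshold of limma came, at 24 h, Id2, Id3, Id4 and Bmpr2 with every library as a replicate (adjusted p of 0.00378, 0.0221, 0.0404 and 0.0287), which treats libraries of 1 animal as independent, and Id2 with the animal as a random effect (0.0151). At 72 h Id3 came past it in the same settings (0.0230 and 0.0295).

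Some changes turned sign, in CCD those near 0. In PT-S1 at 24 h Id1 ranged from -1.05 to 0.058 with 1 animal left out. Smad3 in CCD at 24 h was -0.048 with every library as a replicate, -0.019 with a random effect and from -0.052 to 0.15 with 1 animal left out. Smad4 at 24 h ranged from -0.37 to 0.49 with 1 animal left out. In CCD at 72 h Smad6 was -0.0033 with quantile normalization, -0.0022 with median-ratio scaling, -0.022 from the log2 of mean TPM, -0.013 with every library, -0.0022 with a random effect, -0.14 without low-correlation libraries and -0.15 with arrayWeights. Smad3 was -0.11 and -0.076 in the last 2 settings, Smad4 was -0.17 and -0.0049 in them and -0.019 from the log2 of mean TPM, and Tgfbr1 was -0.28 without low-correlation libraries and -0.065 from the log2 of mean TPM. With 1 animal left out, the ranges at 72 h were -0.13 to 0.11 for Smad6, -0.14 to 0.14 for Smad3, -0.030 to 0.15 for Smad4 and -0.050 to 0.29 for Tgfbr1. The cause was not tested. Mitf was past the threshold in CCD at 24 h except with no filter (adjusted p = 0.0922 by limma), with a replicate block (0.135) and with an animal left out, as reported.

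The number of all genes past the threshold moved more. PT-S1 at 24 h had 0 (2109 at an unadjusted p under 0.05), with 2 without the filter, 1 with median-ratio scaling, 85 with every library, 100 with a random effect, 1 without low-correlation libraries, 1426 with arrayWeights and 0 to 8 with 1 animal left out. PT-S1 at 72 h had 0 (2432 unadjusted), with 18, 10, 1 and 1346 for every library, random effect, low-correlation libraries left out and arrayWeights. CCD at 24 h had 136, with 1 without the filter, 1027 with every library, 485 with a random effect and 7 to 78 with 1 animal left out, the fewest without UNx animal 1 or 2. CCD at 72 h had 82, with 7 without the filter, 39 at a mean TPM of at least 5, 150 with every library, 129 without low-correlation libraries and 8 to 73 with 1 animal left out, the fewest without UNx animal 3. The difference between times had 0, with 1 for every library and 0 to 1 with 1 animal left out.

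Same-numbered sham and UNx animals did not pair: the correlation of their deviations ranged from -0.37 to 0.33. With the number as a replicate block, 80, 0, 0 and 3 genes passed in PT-S1 at 24 h and 72 h and in CCD at 24 h and 72 h, and 0 for the difference. Limits are 3 to 5 animals per group, an unknown depth, and wide intervals, such as -3.26 to -0.35 for Id1 in CCD at 72 h and -1.08 to 1.30 for Smad4 at 24 h.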
